A study of Sus scrofa with 32 samples.

Results

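Fibroblasts and endothelial cells of the pig ileum, the structural and vascular cells of the gut wall, were picked out of a single-cell RNA-seq series that was enriched for lymphocytes. The cells were chosen by their unique molecular identifier (UMI) counts for 4 genes in the 6 ileal libraries, and 51 of 35386 ileal cells passed. A cell needed at least 1250 UMIs, at least 550 genes and at most 12.5% of UMIs from 13 mitochondrial genes, with no UMI of CD3E, CD79B or EPCAM, which mark T cells, B cells and epithelium. Cells with at least 3 UMIs of the fibrillar collagens COL1A2 and COL3A1 together are called collagen-gated cells here (32 cells). Cells with at least 2 UMIs of the endothelial cadherin CDH5 and von Willebrand factor VWF together, and under 3 collagen UMIs, are called CDH5/VWF-gated cells (19 cells). The names follow the gates because in 14 of the 32 collagen-gated cells muscle or pericyte genes outnumbered fibroblast genes.

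The ileum came from 2 mixed-breed pigs of 7 weeks of age with no treatment, pig 1 labelled female and pig 2 male. From each pig 3 dissections were taken, namely ileum with only Peyer's patch (PP), ileum without Peyer's patch (non-PP) and whole ileum, and peripheral blood mononuclear cells (PBMC) of both pigs gave 2 further libraries. The muscle coat had been peeled away, and the digested mucosa and submucosa had been spun over a density gradient and depleted of dead cells, so the gated cells are those that survived a protocol meant for lymphocytes. Each library was 1 10X Chromium v2 channel, and the 32 series entries, 4 for each of the 8 libraries, share 1 matrix per library and were taken as 1 sample.

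Fibroblasts lay down and remodel the collagen scaffold of the lamina propria, and some of them form the chemokine-secreting networks of lymphoid tissue. The gut wall also holds contractile mesenchymal cells, which share collagen expression with fibroblasts but carry smooth muscle actin and myosin, and pericytes, which wrap small vessels. Blood endothelium lines capillaries and venules and regulates passage of fluid, lipids and leukocytes, whereas lymphatic endothelium drains the villi and attracts leukocytes with the chemokine CCL21.

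One library stood apart from its label. The Y-linked genes DDX3Y, EIF1AY, KDM5D and ZFY summed to 4267 UMIs (207 CPM, that is UMIs of the gene scaled to one common library total) in whole ileum pig 1, although pig 1 is labelled female. The other ileal libraries of pig 1 held 5 UMIs (PP) and 3 UMIs (non-PP), PBMC pig 1 held 0, and the ileal libraries of pig 2 held 185 to 226 CPM. Counts of cell sets and of called genes per list are therefore also given without the library labelled whole ileum pig 1 where they differ. That library contributed 6 of the 51 cells. Between 21 and 80 cell barcodes were shared by each of the 28 pairs of libraries, where independent draws from the list of possible barcodes would give 20.0 to 76.7, and 4 of the 51 gated cells had a barcode that also passed the filters in another library. No gated cell had a doublet score above 0.25.

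The gated cells were deeply covered. Collagen-gated cells held 1289 to 8511 UMIs (median 4613.5) and 777 to 2790 genes. CDH5/VWF-gated cells held 2956 to 15110 UMIs (median 6325) and 1276 to 3359 genes, against a median of 2754 UMIs and 1028 genes in the other 35335 ileal cells. Thinned to 1250 UMIs each, the medians were 719.5 genes in collagen-gated cells, 679 genes in CDH5/VWF-gated cells and 603 genes in 600 other ileal cells.

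Collagen-gated cells made up a small share of every ileal library and were most frequent where Peyer's patch had been cut away. Their share was 0.0681% (5 of 7337 cells, interval 0.0221% to 0.159%) in PP pig 1 and 0.0146% (1 of 6872 cells, interval 0.000368% to 0.0811%) in PP pig 2, with 95% Clopper-Pearson intervals that cover counting error only. In the non-PP libraries it was 0.179% (7 of 3908 cells, interval 0.072% to 0.369%) in pig 1 and 0.238% (9 of 3776 cells, interval 0.109% to 0.452%) in pig 2. The whole ileum libraries gave 0.0864% (5 of 5789 cells, interval 0.0281% to 0.201%) in pig 1 and 0.0649% (5 of 7704 cells, interval 0.0211% to 0.151%) in pig 2. Both non-PP libraries lay above both PP libraries, with means of 0.209% ± 0.042 and 0.041% ± 0.038 (SD, n = 2 libraries each), a difference of PP minus non-PP of -0.167 percentage points. The exact two-sided permutation test gave p = 0.333, the smallest that 2 libraries against 2 can give. Lymphocyte numbers enter this denominator. As a share of cells without CD3E and CD79B the means were 1.14% ± 0.468 in non-PP and 0.445% ± 0.417 in PP, and non-PP pig 2 (0.812%) lay close to PP pig 1 (0.740%). Within pigs, PP minus non-PP of this share was -0.734 percentage points in pig 1 and -0.662 in pig 2.

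CDH5/VWF-gated cells were fewer in total (19 against 32), though not in the PP libraries (7 and 1 against 5 and 1), and their dissections overlapped. The share was 0.0954% (7 of 7337 cells, interval 0.0384% to 0.196%) in PP pig 1, 0.0146% (1 of 6872 cells, interval 0.000368% to 0.0811%) in PP pig 2, 0.154% (6 of 3908 cells, interval 0.0564% to 0.334%) in non-PP pig 1 and 0.053% (2 of 3776 cells, interval 0.00642% to 0.191%) in non-PP pig 2. Whole ileum held 0.0173% (1 of 5789 cells, interval 0.000437% to 0.0962%) in pig 1 and 0.026% (2 of 7704 cells, interval 0.00314% to 0.0937%) in pig 2. PP minus non-PP was -0.048 percentage points (exact two-sided permutation p = 0.667, n = 2 libraries each). Of the 19 cells 14 came from pig 1, and 13 of those from its PP and non-PP libraries.

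**Figure D1:**
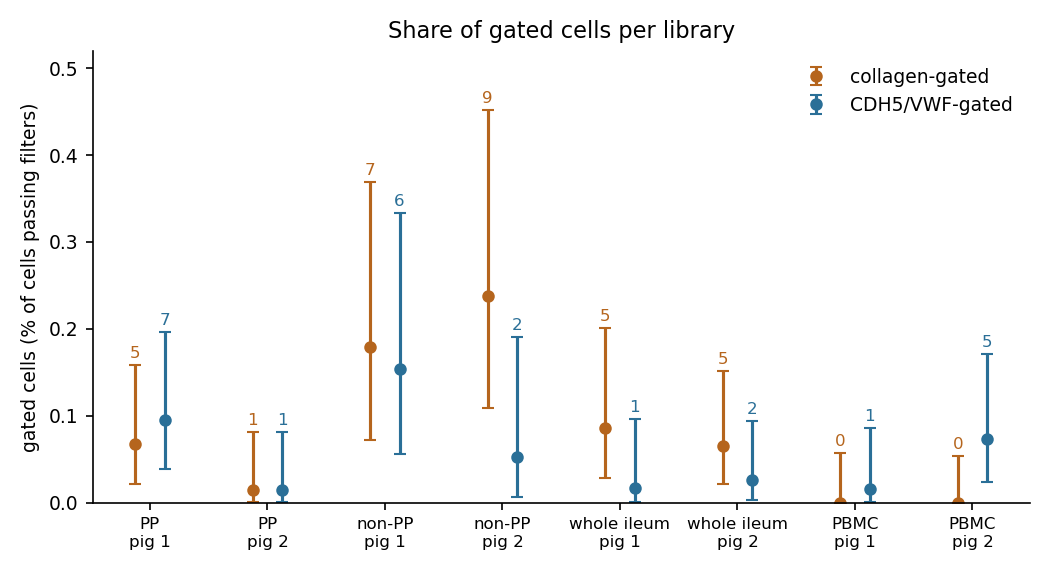
Share of collagen-gated and CDH5/VWF-gated cells (percent of cells passing the filters, y axis) in each of the 8 libraries (x axis), with 95% Clopper-Pearson intervals as bars and the number of gated cells printed above each. The non-PP libraries hold the highest collagen-gated shares, 0.179% and 0.238%, and PBMC holds no collagen-gated cell.

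In blood the same gates found 0 collagen-gated cells among 13243 cells, which allows a share of up to 0.0466% in pig 1 and 0.0441% in pig 2 (3 counts of each total; the upper Clopper-Pearson bounds are 0.0572% and 0.0542%). The CDH5/VWF gate took 1 PBMC cell in pig 1 and 5 in pig 2. These 6 cells entered through VWF alone (2 or 3 UMIs each, no CDH5) and held 0 to 2 UMIs of the listed endothelial markers, against 4 to 235 in the 19 ileal cells. They are not counted among the members.

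No cell stood just below the collagen threshold, and 1 gated cell stood on it. Among ileal cells without CD3E, CD79B or EPCAM, 10 cells had a collagen sum of 1, none had 2, 1 had 3, and the other 31 collagen-gated cells had at least 6. Of the 10 cells below the threshold 0 had a UMI of DCN or LUM, and 6 had a UMI of the leukocyte gene PTPRC. The cell at 3 UMIs, from PP pig 1, also held 8 UMIs of the macrophage complement gene C1QA. More cells stood on and just below the CDH5/VWF threshold. Of the 19 cells 7 stood at the minimum of 2 UMIs, and 14 cells stood just outside at 1 UMI. Of these 14 cells 13 held at least 10 UMIs of CCL21 (median over the 14 of 80 UMIs, highest 1096), 12 had a UMI of PECAM1 and none had PLVAP. A further 11 cells with at least 10 UMIs of CCL21 had no CDH5 or VWF UMI. Inside the gate 8 cells held at least 10 UMIs of CCL21, so most cells of this population with that much CCL21 lay outside it.

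Markers of other cell types were summed in both gates. The gates required 0 UMIs of CD3E and CD79B, which 45.6% and 49.1% of the other ileal cells carry, so lower T and B lineage sums are largely fixed by the rule. T cell markers summed to 102 and 58.5 CPM in collagen-gated cells of pigs 1 and 2 and to 95.5 and 109 CPM in CDH5/VWF-gated cells, against 2121 and 1955 CPM in the other ileal cells. B lineage markers stood at 109 to 161 CPM in the 4 sums, nearly all of it JCHAIN, against 4201 and 6197 CPM elsewhere. Pan-leukocyte genes stood at 102 to 725 CPM, led by ARHGDIB in 3 of the 4 sums, against 4918 and 4635 CPM. Other markers were not lower throughout. Myeloid and mast cell genes summed to 332 and 29.2 CPM in collagen-gated and 127 and 471.5 CPM in CDH5/VWF-gated cells of pigs 1 and 2, the last led by 9 UMIs of AIF1 and above the 227 CPM of the other cells of pig 2. Epithelial genes stood at 617 CPM in CDH5/VWF-gated cells of pig 2, led by 17 UMIs of APOA1, against 598.5 CPM in its other cells, and were below the other cells in the remaining 3 sums. Platelet and erythroid genes, led by ITGA2B, were at 3 to 6 UMIs of that gene per sum, or 175.5 and 181 CPM in the gates of pig 2 against 105 CPM. The part of these cell types in the results was not tested. All 6 named glial genes were at 0 UMIs in both gates. One CDH5/VWF-gated cell of whole ileum pig 1 and 1 of whole ileum pig 2 held 4 and 3 UMIs of PTPRC, and the part of mixed droplets in their profiles was not tested.

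Although all 32 collagen-gated cells shared collagen, they divided into sets with different leading genes. Each cell was placed by which of 3 lists, fibroblast markers, smooth muscle and myofibroblast genes or pericyte genes, had the most UMIs in it. This division was made after the values were seen and is a description with no test. DCN, LUM, COL1A1, ACTA2, ACTG2, MYH11 and DES are on these lists, so their contrasts between the sets are partly built in. In 18 cells the fibroblast list was highest, in 13 the smooth muscle list and in 1 the pericyte list, and without whole ileum pig 1 the counts were 15, 11 and 1 of 27.

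The 18 cells with the fibroblast list highest carried 6 to 594 UMIs (median 110) of that list and 1 to 32 UMIs (median 9.50) of the smooth muscle list. DCN, a small proteoglycan that binds collagen fibrils, reached 0 to 65 UMIs (median 17.5), LUM, a related proteoglycan, 0 to 62 UMIs (median 13.5), and COL1A1 2 to 342 UMIs (median 19). ACTA2, smooth muscle actin, was at most 2 UMIs in them. PDGFRA, a common fibroblast marker, had 0 UMIs in all 32 cells, and PDGFRB had a UMI in 11. The lowest fibroblast list sums in this set were 6, 13 and 24 UMIs. The cell with 6, which is the PP pig 1 cell at the collagen threshold, held 20 myeloid-list UMIs of the 26 in collagen-gated cells of pig 1 beside 30 UMIs of CXCL14 and 10 of POSTN, a mixed profile. The cell with 13 lay on the division, with 13 pericyte-list UMIs, 4 of them RGS5, and 12 smooth muscle-list UMIs.

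The 13 cells with the smooth muscle list highest carried 44 to 964 UMIs (median 421) of that list and only 7 to 31 UMIs (median 16) of the fibroblast list. ACTA2 reached 19 to 233 UMIs (median 102), MYH11, the smooth muscle myosin heavy chain, 0 to 29 UMIs (median 20), and DES, the muscle intermediate filament, 0 to 38 UMIs (median 10). ACTG2, the enteric actin, had UMIs in 12 of the 13 and in 0 of the 18 cells above. These cells met the gate with a median of 18 COL3A1 UMIs, against 39.5 in the 18. DCN had a UMI in 3 of the 13. In 14 of the 32 cells the fibroblast list was therefore not the highest of the 3. The smooth muscle set has its own cell near a division, from whole ileum pig 1, with 44 smooth muscle-list and 34 pericyte-list UMIs. It held 10 UMIs of RGS5 and 4 of PDGFRB, with 0 of ACTG2, MYH11, DES and CNN1, and sets the low end of the ranges of the list and of ACTA2. RGS5, a pericyte regulator of G-protein signalling, was at 4, 10 and 16 UMIs in 3 cells, 1 in each set, and at 1 UMI in another.

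The mixture was unequal between the pigs. The fibroblast list was highest in 13 of 17 collagen-gated cells of pig 1 and in 5 of 15 of pig 2, and the smooth muscle list in 4 of 17 and 9 of 15. Without the library labelled whole ileum pig 1 the counts of pig 1 were 10 of 12 and 2 of 12. Among the 9 cells of pig 2, 6 came from non-PP pig 2. Level differences between pigs or dissections in the sums below therefore move with this composition, and its part in them was not tested.

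**Figure D2:**
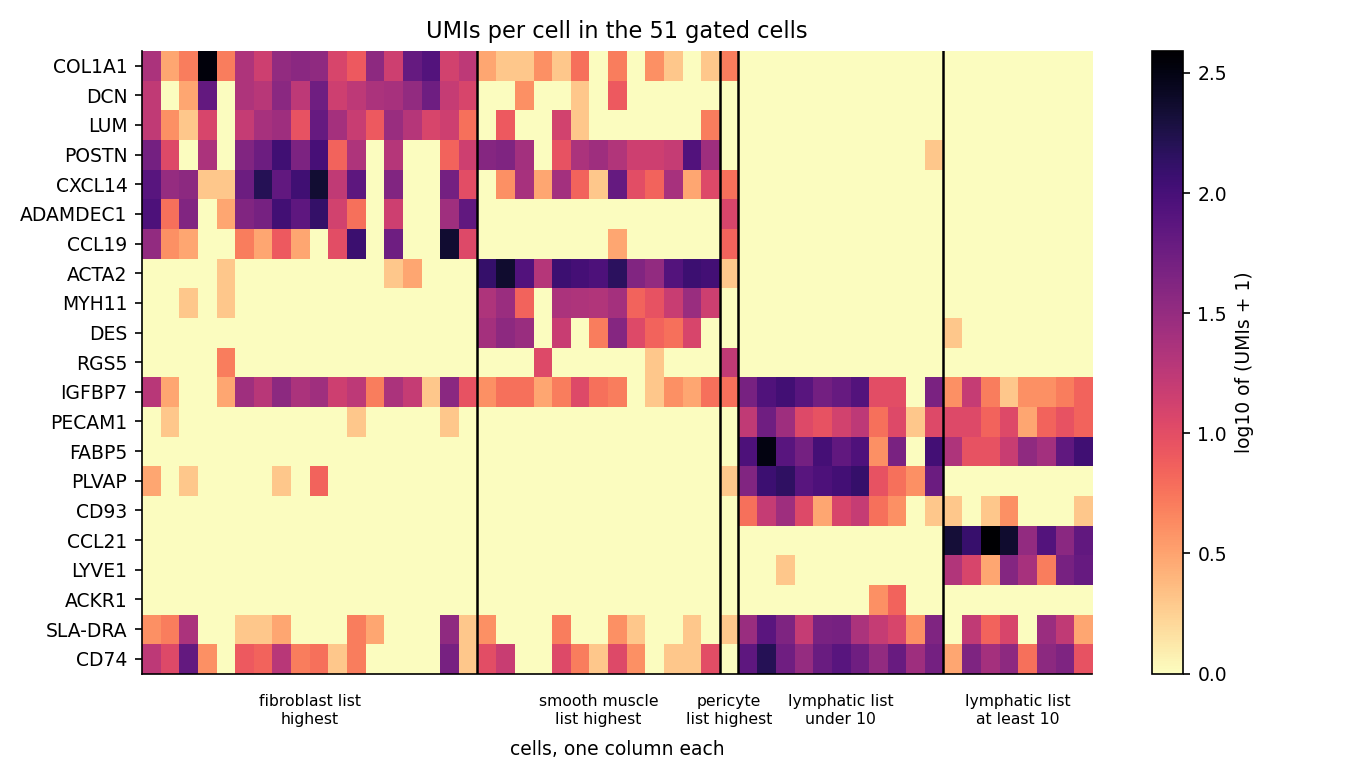
UMIs per cell of 21 genes (rows) in the 51 gated cells (columns), coloured by log10 of UMIs + 1 and ordered by the set each cell fell in. DCN and LUM fill the left block, ACTA2, MYH11 and DES the next, and PLVAP and CCL21 occupy separate CDH5/VWF-gated cells.

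The CDH5/VWF-gated cells carried endothelial genes. PECAM1, an endothelial junction adhesion molecule, had a UMI in 19 of 19 cells (15 of 19 after thinning), in 3 of 32 collagen-gated cells (1 after thinning) and in 5.61% of other ileal cells. They also divided in a way the gate did not use. A set of 8 cells held 62 to 400 UMIs (median 148.5) of the lymphatic list, and the other 11 held 0 to 2 UMIs (median 1), so no cell lay near the value of 10 UMIs set after seeing them. The size of the sets hinges on the gate, since 6 of the 8 and 1 of the 11 stood at its minimum of 2 UMIs, and a minimum of 3 would leave 2 of 12 in the former. CCL21 had 32 to 390 UMIs (median 102) in the 8 and 0 in the 11. LYVE1, the lymphatic hyaluronan receptor, had 2 to 61 UMIs (median 21.5) in the 8. PROX1, the lymphatic transcription factor, had UMIs in 6 of the 8 and in 0 of the 11. CCL21, LYVE1 and PROX1 are on the lymphatic list, so these contrasts are partly built in.

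The 11 cells without the lymphatic list instead held PLVAP, the protein of fenestral and caveolar diaphragms of blood vessels, at 3 to 138 UMIs (median 77), against 0 UMIs in all 8 others. The capillary genes APLNR (26 UMIs), ESM1 (27 UMIs, 26 of them in 1 cell of PP pig 1) and GPIHBP1 (9 UMIs) were found only in these 11 among the gated cells. ACKR1, a chemokine-binding receptor typical of venules, was at 3 and 6 UMIs in 2 of them, from PP and non-PP of pig 2. One of the 11, from whole ileum pig 2, had only 4 UMIs of the endothelial list, 3 of them PLVAP, against 12 of the myeloid and mast list and 16 of the pan-leukocyte list, 3 of them PTPRC, so its leading genes go against an endothelial cell. It held 12 of the 13 myeloid-list UMIs of the gate in pig 2. CCL21-bearing cells were 7 of 14 in pig 1 and 1 of 5 in pig 2, and the 1 gated cell of whole ileum pig 1 was among them.

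**Figure D3:**
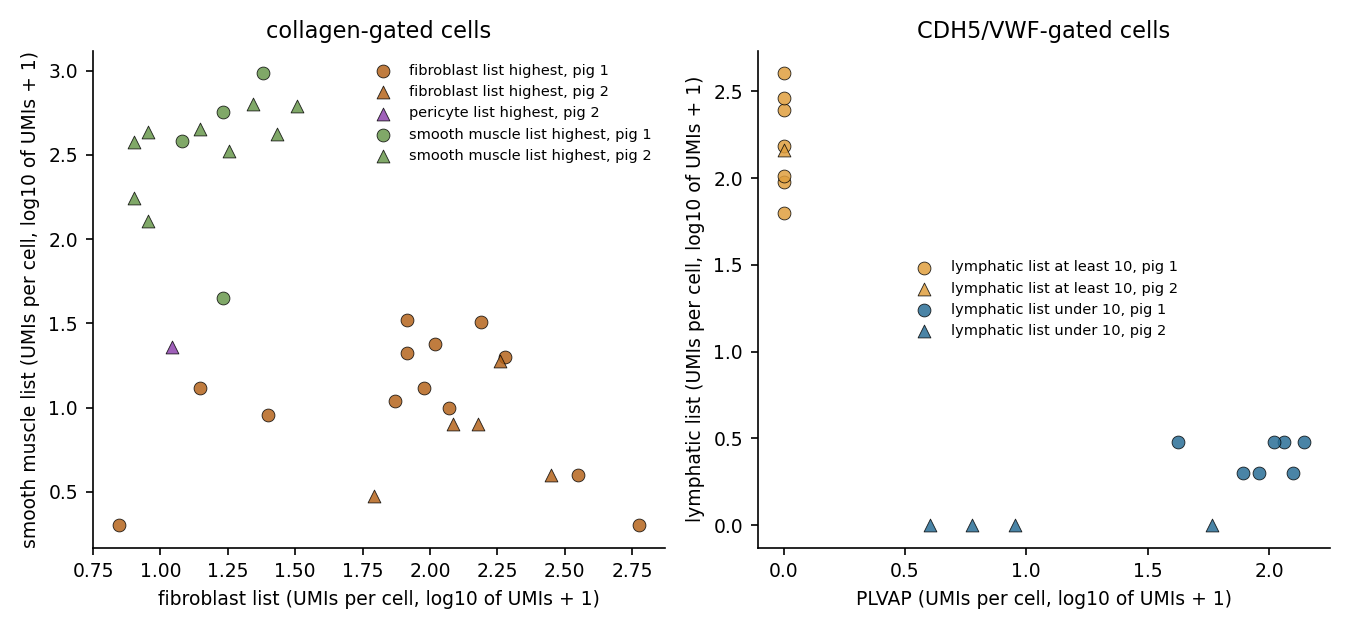
Each point is 1 gated cell (circles pig 1, triangles pig 2, both axes log10 of UMIs + 1). Left, fibroblast against smooth muscle list in the 32 collagen-gated cells, where most cells are high in 1 list only; right, PLVAP against the lymphatic list in the 19 CDH5/VWF-gated cells, where no cell is high in both.

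To compare the gates on genes that did not define them, UMIs were summed per gate and pig (78305 and 68378 UMIs in collagen-gated cells of pigs 1 and 2, 94286 and 27571 in CDH5/VWF-gated cells) and tested with edgeR's quasi-likelihood test. The 7 gate genes and 13 mitochondrial genes were left out, and 1265 genes passed the filter on low counts. At a Benjamini-Hochberg adjusted p under 0.05 and a log2 fold change beyond 1, 127 genes (10.0%) were higher in collagen-gated and 79 (6.25%) in CDH5/VWF-gated cells. Each gate has 1 sum per labelled pig, and the pig 1 sums include the library whose Y-linked genes go against that label, so they are not shown to come from 1 animal. All fold changes below are collagen-gated over CDH5/VWF-gated cells unless stated, adjusted p-values are of this edgeR test, and the median log2 fold change of all tested genes was 0.06. The ± after a log2 fold change is its standard error from the edgeR test. A gene that passed the filter only through the gate where it is high had to differ. Its adjusted p and the counts within lists are therefore descriptions and no support for the gates. Where a gate had no UMI of a gene the fold is a lower bound against 3 UMIs over the whole gate. Every gene given with such a bound falls under this limit. DESeq2 called 87 and 50 genes on the same sums, and without the library labelled whole ileum pig 1 the counts were 91 and 53. Leaving out whole ileum pig 2 gave 77 and 40, leaving out PP pig 1 gave 70 and 49, and leaving out non-PP pig 2 gave 101 and 40, with fewer genes passing the filter each time. Over the libraries of pig 2 alone 9 and 3 of 174 genes tested were called, and over those of pig 1 alone 41 and 21 of 382.

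**Figure D4:**
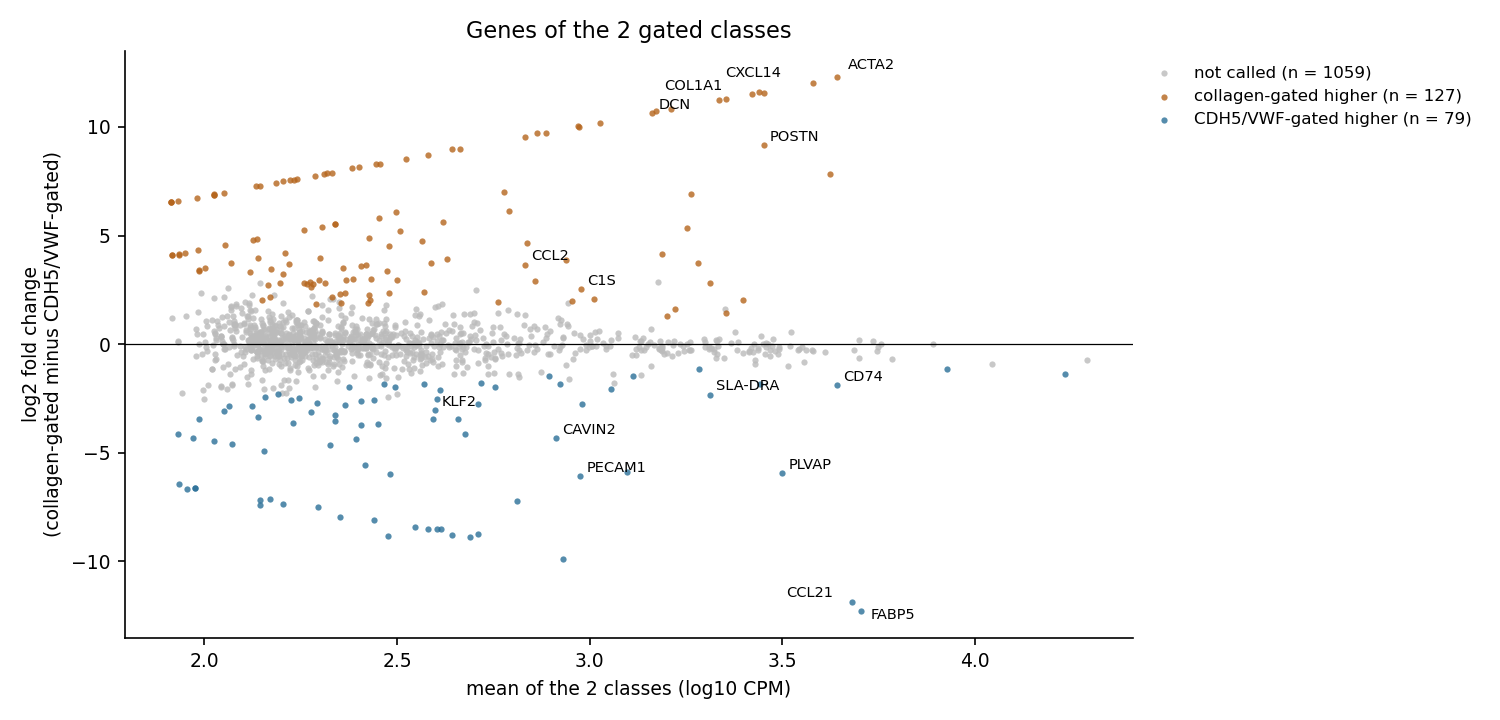
Log2 fold change between the gates (y axis) against the mean of both gates in log10 CPM (x axis) for the 1265 genes tested. The 127 genes higher in collagen-gated and 79 higher in CDH5/VWF-gated cells are coloured, and the points along the straight outer edges are genes with 0 UMIs in 1 gate, whose fitted value depends on the prior count.

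Matrix genes were higher in collagen-gated cells. Of 16 fibroblast markers 13 passed the filter, 10 were higher in collagen-gated cells and none in CDH5/VWF-gated cells (median log2 fold change 7.84, or 4.05 with genes absent from 1 gate at their bound). Without whole ileum pig 1, 8 of these markers were called. Over all tested genes the shares were 10.0% and 6.25%. Called genes such as C1S, TCF21, CCL19, PLVAP, PECAM1, ENG and ERG are on more than 1 list, so the list counts are not independent. COL1A1, the chain that pairs with COL1A2 in type I collagen (chromosome 12, 26379087 to 26397180 in Sscrofa11.1), stood at 16760.5 and 2423 CPM in PP pigs 1 and 2, 3717 and 3987 CPM in non-PP pigs 1 and 2, and 3036 and 1385 CPM in whole ileum pigs 1 and 2. PP pig 1 was the highest, where 1 cell held 342 of the 372 UMIs, and every library held some. No CDH5/VWF-gated cell had a COL1A1 UMI, which makes the difference at least 214-fold (adjusted p = 0.000457). Because its partner COL1A2 is a gate gene, this difference is partly built in and is a description.

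DCN and LUM lie next to each other on chromosome 5 (91678601 to 91713925 and 91748871 to 91756381) and were both absent from CDH5/VWF-gated cells. DCN was at 3739.6 and 4286 CPM in PP pigs 1 and 2, 3849.6 and 2338 CPM in non-PP pigs 1 and 2, and 2982 and 1162 CPM in whole ileum pigs 1 and 2. It was at least 118-fold higher (adjusted p = 0.000436), and LUM, at 2784 CPM in pig 1 and 1375 CPM in pig 2, at least 86.4-fold higher (adjusted p = 0.000733). Of 14 fibrillar and associated collagens 7 passed the filter and 5 were higher, of which COL1A1, COL6A1 and COL6A3 are also fibroblast markers counted above. The calls include COL6A1 (1801 CPM in pig 1 and 863 CPM in pig 2, at least 55.4-fold, adjusted p = 0.0014) and COL14A1 (48.2-fold (95% counting interval 8.31 to 1936)). COL18A1, found around vessels as well, was not called, at 1162 CPM in pig 1 and 526 CPM in pig 2 against 424 CPM in pig 1 and 145 CPM in pig 2 (log2 fold change 1.56 ± 0.62, adjusted p = 0.156).

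Of 30 matrix glycoproteins and proteoglycans 18 passed and 12 were higher in collagen-gated cells, none lower (median log2 fold change 6.17, 3.48 with bounds; 8 called without whole ileum pig 1). Among the 12, DCN, LUM, FBLN1 and DPT are also fibroblast markers counted above. POSTN, periostin, was at 5407 and 3541 CPM in PP pigs 1 and 2, 10407 and 2535 CPM in non-PP pigs 1 and 2, and 2819 and 6435 CPM in whole ileum pigs 1 and 2, against 1 UMI in all CDH5/VWF-gated cells (689.5-fold (95% counting interval 123 to 27267), adjusted p = 0.000363). It was shared by both large sets, at 6090 CPM in the fibroblast set and 5262 CPM in the smooth muscle set. SPARC, a collagen-binding glycoprotein made by both gates, was at 1622 CPM in pig 1 and 965 CPM in pig 2 against 519.7 CPM in pig 1 and 181 CPM in pig 2 and did not pass (adjusted p = 0.0517). Of its 127 UMIs in collagen-gated cells of pig 1, 73 were in 1 cell of PP pig 1. Among collagen processing enzymes 3 of 7 tested were higher, or 2 without whole ileum pig 1. The 3 were LOXL2 (a collagen cross-linker, 43.2-fold (95% counting interval 7.42 to 1739)), PCOLCE (a procollagen peptidase enhancer, 38.2-fold (95% counting interval 10.3 to 320.3), with 42 of its 92 UMIs in 1 cell of PP pig 1) and P4HA1 (a prolyl hydroxylase, 3.92-fold). The collagen chaperone SERPINH1 was at 1047 CPM in pig 1 and 1228 CPM in pig 2 against 573 CPM in pig 1 and 762 CPM in pig 2 and was not called (adjusted p = 0.172).

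Basement membrane genes, which both vessels and mesenchyme deposit, did not separate the gates. None of the 3 tested of 12 named passed (median log2 fold change -0.14). COL4A2 was at 217 CPM in pig 1 and 219 CPM in pig 2 and at 329 CPM in pig 1 and 145 CPM in pig 2 in CDH5/VWF-gated cells (log2 fold change -0.14 ± 0.52, adjusted p = 0.926). That standard error is too large to show that the levels were alike.

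All 11 smooth muscle and myofibroblast genes that passed, of 12 listed, were higher in collagen-gated cells (median log2 fold change 8.99, 6.25 with bounds; 10 without whole ileum pig 1). ACTA2 was at 5632 and 186 CPM in PP pigs 1 and 2, 6212.5 and 12920.5 CPM in non-PP pigs 1 and 2, and 5584 and 13450.1 CPM in whole ileum pigs 1 and 2. PP pig 2, with a single cell, was the low library, and both pig 2 libraries with more cells were the highest. ACTA2 had no UMI in CDH5/VWF-gated cells (at least 357-fold higher, adjusted p = 0.000215). ACTG2, whose coding sequence is close to that of ACTA2 so that reads could be shared, was at least 223-fold higher (5032 CPM in pig 1 and 6039.9 CPM in pig 2, adjusted p = 9.51e-05). The thin-filament genes TPM2 (3090.5 CPM in pig 1 and 5747 CPM in pig 2, at least 176-fold, adjusted p = 0.000363) and CNN1 (1252 CPM in pig 1 and 2574 CPM in pig 2, at least 75.9-fold, adjusted p = 0.000733) followed the same pattern.

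ACTA2, ACTG2, TPM2, CNN1 and HHIP are on the list that defined the smooth muscle set, so their place in its 13 cells is partly built in. TPM2 reached 9102 CPM in them against 649 CPM in the fibroblast set, and CNN1 4329.6 CPM against 0. ITIH4, a serum inhibitor-family protein that is not on that list, had a like distribution, with 6858 CPM in the smooth muscle set and 12.3 CPM in the fibroblast set. Over the gate it stood at 1826 CPM in pig 1 and 4285 CPM in pig 2 (at least 121-fold higher, adjusted p = 0.000543). HHIP, an antagonist of hedgehog signalling, was at 2007 and 24.5 CPM in these sets. The 1 tested pericyte gene, RGS5, was called (179 CPM in pig 1 and 249 CPM in pig 2, adjusted p = 0.00938) but not without whole ileum pig 1, and it rested on 4 cells.

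Several secreted proteases and chemokines were higher in collagen-gated cells, 4 of 8 tested proteases and inhibitors and 6 of 11 chemokines. CXCL14, a chemokine of intestinal fibroblasts and epithelium, stood at 6443 and 7641 CPM in PP pigs 1 and 2, 16168 and 2830.2 CPM in non-PP pigs 1 and 2, and 6072 and 4200.4 CPM in whole ileum pigs 1 and 2, highest in non-PP pig 1. It had UMIs in 28 of 32 collagen-gated cells and in none of the 19 (at least 308-fold, adjusted p = 0.000543). The metalloproteases ADAMDEC1, found in gut fibroblasts and macrophages, and MMP3, stromelysin, were uneven between pigs. ADAMDEC1 was at 6998 CPM in pig 1 and 1711 CPM in pig 2 (at least 184-fold, adjusted p = 0.00153). MMP3 was at 10178 CPM in pig 1 and 512 CPM in pig 2 (at least 230.4-fold, adjusted p = 0.0118), with 629 of its 832 UMIs in non-PP pig 1 and 139 in PP pig 1. The MMP3 call was lost without whole ileum pig 1 (adjusted p = 0.0607), without whole ileum pig 2 (0.0865) and without PP pig 1 (0.0953), and the ADAMDEC1 call without whole ileum pig 2 (0.0615). The fitted log2 fold changes of MMP3 were then 11.8, 11.4 and 11.2, against 11.6 with all libraries. That of ADAMDEC1 was 10.9 against 11.3. These fitted values depend on the prior count. Without whole ileum pig 1, 2 of the 8 proteases and inhibitors were called. TIMP1, a protease inhibitor, was at 677 CPM in pig 1 and 292 CPM in pig 2 against 944 CPM in pig 1 and 435 CPM in pig 2 and was not called.

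CCL19 and CCL21, chemokine ligands of the same receptor CCR7, lie side by side on chromosome 10 (32110366 to 32112529 and 32093783 to 32094482) and were found in different gates. CCL19 was at 1667 and 10249.7 CPM in PP pigs 1 and 2, 398 and 197 CPM in non-PP pigs 1 and 2, and 6886 and 10546 CPM in whole ileum pigs 1 and 2 in collagen-gated cells, and 0 in CDH5/VWF-gated cells (at least 132-fold, adjusted p = 0.000377). Of its 478 UMIs 1 cell of whole ileum pig 2 held 226 and 1 cell of whole ileum pig 1 held 118. CCL21 was 0 in collagen-gated cells and stood at 17800.3 and 0 CPM in PP pigs 1 and 2, 3528 and 4664 CPM in non-PP pigs 1 and 2, and 4386.5 and 0 CPM in whole ileum pigs 1 and 2 in CDH5/VWF-gated cells (at least 471-fold higher there, adjusted p = 0.00145). The libraries at 0 were those without a gated cell of the lymphatic set. The CCL21 bound leans on PP pig 1, where 4 cells held 122 to 390 UMIs each, and was not computed without that library.

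Of 16 chemokines and atypical receptors named in the matrices 11 passed, 6 were higher in collagen-gated cells and 1, CCL21, in CDH5/VWF-gated cells. Without whole ileum pig 1 these counts were 5 and 1. CCL2, a monocyte attractant, was at 1341 CPM in pig 1 and 1141 CPM in pig 2 against 138 CPM in pig 1 and 36.3 CPM in pig 2 (log2 fold change 3.67 ± 0.57, adjusted p = 0.00359), with 66 of its 183 UMIs in 1 cell of PP pig 1. CCL11, the eosinophil attractant eotaxin, was at least 14.1-fold higher (adjusted p = 0.00545), and CXCL8 28.8-fold (95% counting interval 9.59 to 142) (adjusted p = 0.00335). CXCL10, an interferon-induced chemokine, was not called, at 1073 CPM in pig 1 and 175 CPM in pig 2 against 912 CPM in pig 1 and 4207 CPM in pig 2. Reticular and follicular stromal genes gave 3 calls of 5 tested, CCL19, MFGE8 and CLU (1 without whole ileum pig 1).

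Complement genes were higher in collagen-gated cells in 6 of 7 tested (5 without whole ileum pig 1), and none was lower (median log2 fold change 2.09). Most of them were also present in CDH5/VWF-gated cells. C4A, which has near-identical copies in mammals, is uncertain. C1S, a protease of the first complement component, was at 1877 CPM in pig 1 and 1243 CPM in pig 2 against 361 CPM in pig 1 and 181 CPM in pig 2 (log2 fold change 2.55 ± 0.49, adjusted p = 0.00938). CFD, factor D, was at 4891 CPM in pig 1 and 2735 CPM in pig 2 against 1209 CPM in pig 1 and 762 CPM in pig 2 (2.06 ± 0.41, adjusted p = 0.0101). C3, the central component, had 63 UMIs, 37 of them in 1 cell of PP pig 1, against 1 (52.3-fold (95% counting interval 9.06 to 2099.6)), and the exception CFI, factor I, was at 243 CPM in pig 1 and 102 CPM in pig 2 against 339 CPM in pig 1 and 435 CPM in pig 2 (adjusted p = 0.355).

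Regulators of the mesenchyme were sparse. TCF21 and FOXF2 had a UMI in 0 of 19 CDH5/VWF-gated cells and FOXF1 in 1. They passed the filter largely through the collagen gate, so the shared direction of the list is a description. Of 21 named mesenchymal transcription factors 4 passed and all 4 were higher (2 without whole ileum pig 1), namely TCF21 (at least 13.8-fold, adjusted p = 0.00545), FOXF2 (at least 7.75-fold), FOXF1 (19.1-fold (95% counting interval 3.10 to 787)) and NKX2-3 (6.17-fold). TCF21 was at 527 CPM in the fibroblast set and 111 in the smooth muscle set, whereas NKX2-3 was at 73.5 and 727 CPM. Ligands and antagonists that act on the epithelial stem cell niche gave 3 calls of 3 tested, BMP4, WNT2B and SFRP1 (1 without whole ileum pig 1), with 25, 32 and 24 UMIs in the whole gate. ALDH1A3, which makes retinoic acid, was also higher (1213 CPM in pig 1 and 249 CPM in pig 2, at least 31.0-fold, adjusted p = 0.0101).

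In CDH5/VWF-gated cells all 7 endothelial markers that passed, of 16 listed, were higher than in collagen-gated cells, also without whole ileum pig 1 (median log2 fold change -6.08, -5.22 with bounds). PECAM1 was at 2474 and 1128 CPM in PP pigs 1 and 2, 1702 and 1131 CPM in non-PP pigs 1 and 2, and 975 and 1224 CPM in whole ileum pigs 1 and 2. No library lacked it, and it stood at 25.5 CPM in pig 1 and 14.6 CPM in pig 2 in collagen-gated cells (91.5-fold (95% counting interval 30.9 to 447), adjusted p = 0.000729). PLVAP was at 5449.8 and 1804 CPM in PP pigs 1 and 2, 12223 and 353 CPM in non-PP pigs 1 and 2, and 0 and 6678 CPM in whole ileum pigs 1 and 2 (83.3-fold higher, adjusted p = 0.00183), with none in the library whose single cell was of the lymphatic set. EMCN, a sialomucin of capillaries and veins (562 CPM in pig 1 and 508 CPM in pig 2), ECSCR, an endothelial surface protein (806 CPM in pig 1 and 617 CPM in pig 2), and CD93, a C-type lectin-like receptor (955 CPM in pig 1 and 363 CPM in pig 2), had no UMI in collagen-gated cells and were at least 26.9-fold, at least 37.3-fold and at least 40.1-fold higher (adjusted p = 0.00159, 0.0014 and 0.00335).

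The lymphatic list gave 3 calls of 4 tested, with and without whole ileum pig 1. Besides CCL21, LYVE1 was at 1559 CPM in pig 1 and 2212 CPM in pig 2 (at least 83.5-fold, adjusted p = 0.000457), and MMRN1, a multimerin, at 742 CPM in pig 1 and 580.3 CPM in pig 2 (at least 34.5-fold, adjusted p = 0.0014). TFF3, which goblet cells make in quantity, was not called. ITM2A, a membrane protein (880.3 CPM in pig 1 and 870.5 CPM in pig 2, at least 42.9-fold, adjusted p = 0.00101), was present at 876 CPM in the 11 PLVAP cells and 881 CPM in the 8 CCL21 cells. PKIB, a protein kinase A inhibitor (at least 39.3-fold, adjusted p = 0.00247), and FAM167B (at least 50.2-fold, adjusted p = 0.00516) were at 1321 and 1685 CPM in the former and 0 in the latter. LRRC70 (414 CPM in pig 1 and 580.3 CPM in pig 2, at least 22.1-fold, adjusted p = 0.00231) was called together with IPO11 (adjusted p = 0.000733), a gene it overlaps in other mammals, and reads of the pair may not be separable.

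Fatty acid carriers and part of the caveolar genes were higher in the CDH5/VWF gate. Of 14 named genes of caveolae and endothelial transport 7 passed and 4 were higher, also without whole ileum pig 1 (median log2 fold change -4.32). FABP5, a fatty acid binding protein, was at 9988 and 677 CPM in PP pigs 1 and 2, 11295 and 10882 CPM in non-PP pigs 1 and 2, and 8286 and 11575 CPM in whole ileum pigs 1 and 2 and had UMIs in 18 of 19 cells. Only PP pig 2, with 1 cell, was low. Collagen-gated cells had none (at least 494-fold, adjusted p = 4.21e-05), and other ileal cells 71.5 CPM. FABP4, its neighbour on chromosome 4, was at 286 CPM in pig 1 and 1668 CPM in pig 2 but came from only 2 cells, with 27 and 46 UMIs (at least 29.3-fold, adjusted p = 0.00971, and 0.0637 without whole ileum pig 2). CAVIN2, a caveolar coat protein, was at 1591 CPM in pig 1 and 1487 CPM in pig 2 against 51.1 CPM in pig 1 and 87.7 CPM in pig 2 (log2 fold change -4.32 ± 0.50, adjusted p = 0.000984). CAV1, the main caveolar protein, was not called, at 1771 CPM in pig 1 and 1559.6 CPM in pig 2 against 268 CPM in pig 1 and 921 CPM in pig 2 (adjusted p = 0.151). Within the collagen gate the smooth muscle set held 1232.5 CPM of it against 61.3 CPM in the fibroblast set.

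Leukocyte adhesion and junction genes gave 3 calls of 8 tested, all higher in CDH5/VWF-gated cells, namely PECAM1, the integrin ligand ICAM2 (212 CPM in pig 1 and 181 CPM in pig 2, 30.1-fold (95% counting interval 4.93 to 1236), adjusted p = 0.0139) and the junction protein JAM2 (13.2-fold (95% counting interval 3.25 to 116), adjusted p = 0.0367). Only 1 gene of this list was called by DESeq2. ICAM1 was at 106 CPM in pig 1 and 580.3 CPM in pig 2 against 204 CPM in pig 1 and 43.9 CPM in pig 2 and was not called. VEGF and angiopoietin genes gave 2 of 4, ANGPT2, a ligand that loosens vessels (26.5-fold (95% counting interval 4.28 to 1093), adjusted p = 0.0183), and the TGF-beta co-receptor ENG (log2 fold change -1.85 ± 0.47, adjusted p = 0.029; 1 call of the list without whole ileum pig 1). DESeq2 called neither gene. The VEGF receptor KDR did not pass the filter, with 35 UMIs in CDH5/VWF-gated cells and 0 in collagen-gated cells. Of 5 tested endothelial transcription factors ERG (148 CPM in pig 1 and 290.2 CPM in pig 2, at least 8.83-fold, adjusted p = 0.0136) and the flow-responsive KLF2 (594 CPM in pig 1 and 1088 CPM in pig 2 against 76.6 CPM in pig 1 and 102 CPM in pig 2, log2 fold change -3.02 ± 0.54, adjusted p = 0.00671) were higher.

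MHC class II genes, which present peptides to CD4 T cells, were higher in CDH5/VWF-gated cells in 5 of 5 tested (median log2 fold change -2.32). CD74, the invariant chain, was at 7124 and 7217 CPM in PP pigs 1 and 2, 8015 and 4805 CPM in non-PP pigs 1 and 2, and 5239 and 8569.8 CPM in whole ileum pigs 1 and 2, and at 2082 CPM in pig 1 and 1287 CPM in pig 2 in collagen-gated cells (log2 fold change -1.88 ± 0.31, adjusted p = 0.00516). SLA-DRA was at 3348 and 3383 CPM in PP pigs 1 and 2, 4951 and 919 CPM in non-PP pigs 1 and 2, and 1949.6 and 5008 CPM in whole ileum pigs 1 and 2, against 536 CPM in pig 1 and 643 CPM in pig 2 (-2.32 ± 0.35, adjusted p = 0.00313). Reads of similar SLA class II genes may be shared among them. Both genes had UMIs in most CDH5/VWF-gated cells (19 and 17 of 19), and the list summed to 13730 and 10700 CPM in pigs 1 and 2, above the 6152 and 6339 CPM of the other ileal cells and the 3039 and 2398 CPM of collagen-gated cells. In barcodes of at most 100 UMIs, which hold mostly free RNA, CD74 stood at 2419 CPM and SLA-DRA at 1127 CPM, above their pooled levels in collagen-gated cells of both pigs. Those cells were uneven. One of PP pig 1 held 65 UMIs of CD74 and 22 of SLA-DRA, and one of whole ileum pig 2 held 48 and 33. The part of free RNA in the collagen-gated levels was not tested. CD74 stood at 9006 CPM in the 11 PLVAP cells and at 4068 CPM in the 8 CCL21 cells. Without whole ileum pig 1, 2 of the 5 genes were called, and DESeq2 called 3.

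Interferon-stimulated genes gave 3 calls of 8 tested, ISG15, IFIT1 and BST2, all higher in CDH5/VWF-gated cells, and none of these calls held without whole ileum pig 1. DESeq2 called 1 gene of the list. IFIT1 was at 318 CPM in pig 1 and 1197 CPM in pig 2 against 25.5 CPM in pig 1 and 73.1 CPM in pig 2 (log2 fold change -3.65 ± 0.81, adjusted p = 0.0156). In barcodes of at most 100 UMIs IFIT1 stood at 147.5 CPM and ISG15 at 1122 CPM. Both values were above the collagen-gated levels, which for ISG15 reached at most 1084 CPM in any library. The part of free RNA in those levels was not tested. BST2 stood at 148.2 CPM in these barcodes, below its collagen-gated level in every library. IFI6 was at 6332 CPM in pig 1 and 10881 CPM in pig 2 against 4278 CPM in pig 1 and 5469.6 CPM in pig 2 and was not called, with 2799 CPM in the barcodes of at most 100 UMIs. Immediate early and heat shock genes, which rise during tissue digestion, gave 0 calls of 10 tested (median log2 fold change -0.04). FOS was lower in pig 1 than in pig 2 in both gates, at 651 CPM in pig 1 and 2559 CPM in pig 2 in collagen-gated and 1029 CPM in pig 1 and 3736 CPM in pig 2 in CDH5/VWF-gated cells.

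The remaining lists gave no call. RGCC was the 1 capillary and arterial gene tested, HES1 and RBPJ the 2 Notch pathway genes and TGFBR2 the 1 growth factor receptor, with adjusted p of 0.292, 0.273, 0.156 and 0.653. No high endothelial venule gene and none of haemostasis and vascular tone passed the filter.

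**Figure D5:**
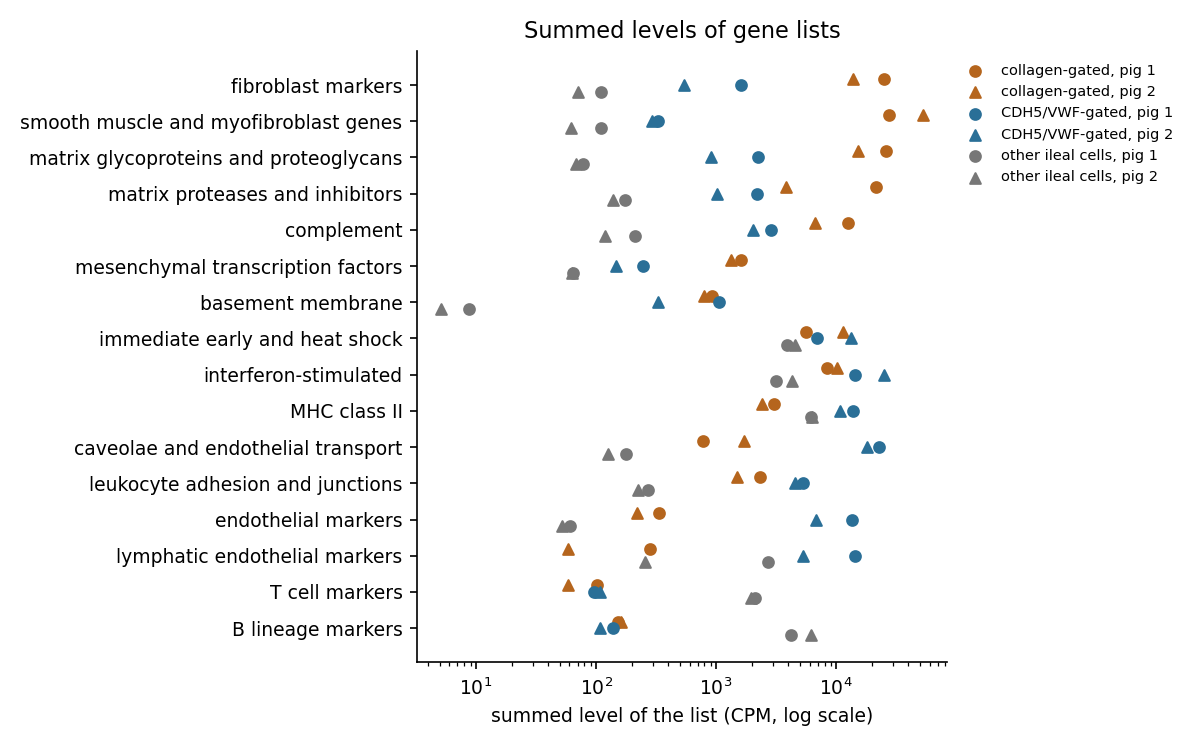
Summed level of 16 gene lists in CPM (log axis) in collagen-gated, CDH5/VWF-gated and other ileal cells of pig 1 (circles) and pig 2 (triangles). Fibroblast and smooth muscle lists are highest in collagen-gated cells of both pigs, endothelial, transport and MHC class II lists in CDH5/VWF-gated cells, while T and B lineage lists are highest in the other cells.

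Both gates shared genes that few other ileal cells had. By a rule set after seeing the data (a UMI in at least 60% of each gate and in under 5% of the other ileal cells, gate genes left out), 16 named genes qualified, a description with no test. IGFBP7, a secreted binding protein of vessel walls, had UMIs in 29 of 32 and 18 of 19 gated cells and in 0.623% of other cells. SPARC (28 and 12 cells, 0.159%), SERPINH1 (31 and 16 cells, 0.280%), C1S (29 and 14 cells, 0.190%) and the G-protein subunit GNG11 (26 and 18 cells, 1.52%) were of this kind. The gated cells were deeper than the others, and depth moves with these shares.

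Finally, non-PP and PP were compared within collagen-gated cells over the 5 libraries with at least 3 such cells, where PP is represented by pig 1 alone and whole ileum enters for the spread. The lone PP library is assumed to vary like the others. None of 543 genes tested (0%) passed an adjusted p of 0.05 in edgeR or in DESeq2, with 22 genes at an unadjusted p under 0.05 in edgeR and 9 in DESeq2. CCL19 stood at 1667 CPM in PP pig 1 against 398 and 197 CPM in non-PP, with 6886 and 10546 CPM in whole ileum (log2 fold change non-PP minus PP -2.47 ± 0.61, adjusted p = 0.84). C3 was at 1757 and 1491 CPM in the PP libraries of pigs 1 and 2 and at 133 and 0 CPM in non-PP (-4.66 ± 1.18, adjusted p = 0.84, without PP pig 2). In PP pig 1 a single cell held 37 of the 39 C3 UMIs, and PP pig 2 is 1 cell. The count of 0 rested on single libraries, since 26 genes passed without non-PP pig 1, 12 without non-PP pig 2, 5 without whole ileum pig 1 and 3 without whole ileum pig 2. CDH5/VWF-gated cells reached 3 cells only in PP and non-PP of pig 1, so no such fit could be made.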

How the data were processed

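Ileal and blood cells were profiled by 10X Chromium v2 single-cell RNA-seq. The authors deposited 1 matrix per library of raw UMI counts per gene and barcode, before their ambient-RNA removal, cell filters and doublet removal, aligned to Sus scrofa 11.1 with a modified Ensembl 97 annotation. The submitters' processing notes name Cell Ranger 4.0.6. Every sample column was mapped. Of 25880 features 9467 had no symbol, and 36 of 458 listed genes were not named in the matrices. Gene positions are from RefSeq, Sscrofa11.1.

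Barcodes were filtered and gated as given above, and doublets were scored by simulated pairs but not removed. The members and gene lists were chosen with earlier results of these data known. Counts were summed per gate and labelled pig, the 2 pigs being the replicates although 1 library of pig 1 went against its label, and tested with edgeR 4.0.16 (TMM, filterByExpr, quasi-likelihood, Benjamini-Hochberg) in R 4.3.3. limma 3.58.1, DESeq2 1.42.0, Python 3.11.15, numpy 2.4.6, scipy 1.17.1 and pandas 2.3.3 were also used, and the steps were tested on simulated data. Named genes were the 12 with the largest fold in each direction among called genes with the same direction in both pigs, plus list members whose role a paragraph describes. Sums of both gates from 1 pig share their libraries, and their deviations correlated at r = 0.124 over 1265 genes. Intervals cover counting error only.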

Additional observations from a re-analysis of the deposited data

Results flagged for a closer look

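The library labelled whole ileum pig 1 held Y-linked genes (DDX3Y, EIF1AY, KDM5D and ZFY) at 206.6 CPM, although pig 1 is labelled female, against 0.161 and 0.224 CPM in its PP and non-PP libraries and 0 in its blood. It stands out because these genes entered no comparison. Among the 6 gated cells of that library, 2 held a Y-linked UMI, and none of the 12 and 13 gated cells of PP and non-PP pig 1 did.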

How the results depend on the processing

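The gate comparison gave 127 and 79 genes (higher in collagen-gated and in CDH5/VWF-gated cells). DESeq2 gave 87 and 50, no filter on low counts 231 and 139 of 10413 tested, sums per library with a library block 26 and 16 of 228 tested, and cells thinned to the UMI minimum 43 and 17 of 290 tested. Leaving out single libraries or all libraries of 1 pig gave 9 to 108 and 3 to 66, with fewer genes tested. With the pig as a replicate block, since both gates come from the same libraries, the counts were 136 and 79, the median absolute log2 fold change of the 24 named genes was 10.4 and the dissection count was 0. That median was 10.4 without the block and 8.43 to 10.5 when libraries or a pig were left out. Of 408 pairs of a named gene and an alternative 63 gave no value because the gene was not tested there. Of the other 345, 340 stayed past the threshold and 5 did not. All 24 have 0 UMIs in 1 gate, so their direction is fixed by that and their fitted folds depend on the prior count, and neither is a sign of stability. The dissection count of 0 became 7 of 9062 without a filter, and 3 to 26 when a library was left out; the cause was not tested. It could not be fitted without PP pig 1 or in CDH5/VWF-gated cells. PP minus non-PP was -0.224 to -0.111 percentage points in single pigs for collagen-gated shares and -0.0581 to -0.0384 for CDH5/VWF-gated shares, and both stayed negative under every denominator, threshold and filter tried. With 500 UMIs as the only filter the means shrank from -0.167 to -0.102 and from -0.0483 to -0.0113, and in pig 1 the differences were -0.0373 and -0.00435. When CD3E, CD79B and EPCAM excluded no cell, the mean differences grew to -0.230 and -0.112. The collagen-gated PP mean was then 0.0968%, and the CDH5/VWF gate took 19 cells of PBMC pig 2. Counts per list and of cell sets without whole ileum pig 1, the cell sets themselves and the rule for shared genes were chosen after seeing the data. Depth limits the low genes, since 19 and 32 cells stand behind all sums.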

Other observations

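Outside the CDH5/VWF gate, 11 of 4074 ileal cells with no CDH5 or VWF UMI and no CD3E, CD79B or EPCAM UMI held at least 10 UMIs of CCL21, 5 in PP pig 1, 2 in non-PP pig 1, 3 in non-PP pig 2 and 1 in whole ileum pig 2. LYVE1 reached that level in 8 of the 4074 cells and RGS5 in 2, while PLVAP, DCN and ACTA2 did so in none. These cells were found after the values were seen and enter no comparison.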
